A study of Mus musculus with 12 samples.

Results

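The small intestine oxidizes many drugs before they reach the liver, and cytochrome P450s of families 1 to 3 carry out much of this first step. Described here are the probe sets of 9 such genes of the mouse: Cyp3a11, Cyp3a13 and Cyp3a25, Cyp2b10, Cyp2c55, Cyp2d22 and Cyp2d26, Cyp2j6, and Cyp1a1. They were taken by gene symbol from the annotation of the array, which gave 12 of its 22690 probe sets, and 9 of its 12394 genes with a symbol of their own. All 9 genes had at least 1 probe set, and none of the 12 probe sets carried a second symbol.

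Total RNA of the complete small intestine of male mice of 14 weeks had been hybridized to Affymetrix 430A arrays. The 4 groups were PPARα-null mice fasted for 24 h, PPARα-null mice with free access to feed, wild-type mice fasted for 24 h and wild-type mice with free access to feed, with 3 biological replicates and 3 arrays in each. The series description names AIN93M as their diet, whereas the study's methods name a standard laboratory chow, so the diet is not settled. PPARα-null mice lack the nuclear receptor PPARα, which fatty acids released upon fasting activate. The null mice were of the substrain 129S4/SvJae and the wild-type mice of 129S1/SvImJ, so that the effects of genotype and substrain cannot be told apart. Whether mice were pooled within a replicate is not stated, and a lower signal from a whole intestine cannot tell fewer cells of a type from less RNA per cell.

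Xenobiotic P450s are enzymes of the endoplasmic reticulum that use heme and electrons from NADPH to insert oxygen into lipophilic substrates. Their genes are classical targets of receptors that sense foreign compounds: PXR and CAR switch on the Cyp3a and Cyp2b genes, each as a heterodimer with RXR, and the aryl hydrocarbon receptor AhR switches on Cyp1a1. Enterocytes of the mouse are known to carry Cyp3a and Cyp2b enzymes, and Cyp2c and Cyp2j enzymes also oxidize arachidonic acid to signalling epoxides.

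Values are the intensities deposited by the authors, on a linear scale. A change is the log2 of fasted over fed or of PPARα-null over wild-type, with its standard error (SE), from a linear model fitted with limma to all 12 arrays, and p-values were adjusted by the Benjamini-Hochberg method across every probe set tested. A call required an unadjusted p under 0.01 together with a change of more than 1.3-fold. Fasted arrays had median intensities of 11.05 to 11.33 and fed arrays of 12.65 to 12.81, and the expressed probe sets were lower in the fasted arrays by a common −0.32. Every log2 change upon fasting is given relative to this shift, unless "as deposited" stands beside it, where it is lower by that amount. The fasted and the fed arrays form 2 sets with different distributions, so that feeding and processing set cannot be told apart in a change upon fasting. Differences between genotypes within a feeding state do not depend on it.

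Ppara itself, with 1 probe set, had a mean of 11.9 ± 1.16 in PPARα-null fasted mice and 7.23 ± 0.346 in PPARα-null fed mice, against 45.9 ± 14.1 in wild-type fasted mice and 29.9 ± 8.75 in wild-type fed mice (SD, n = 3 each). Null and wild-type mice differed by −1.90 (adjusted p = 4.51e-05) when fasted and by −2.002 (adjusted p = 0.000919) when fed, with no overlap of the arrays, as the titles of the arrays have it. One label field of the wild-type fasted arrays names the knockout, and their title and strain name the wild type. All 10 enterocyte markers on the array had mean intensities over 20 in each group, and their sums lay between 54919 and 63280 on every array. Liver markers were not a visible part of the samples, with a mean over 20 in PPARα-null fasted mice for 2 of 15. The summed signal of 15 genes of the exocrine pancreas ran between 10304 and 38605 on PPARα-null fasted arrays and between 21244 and 31782 on wild-type fasted arrays, against 11270 to 11678 on PPARα-null fed arrays and 11355 to 13620 on wild-type fed arrays. Zg16, 1 of the 15 and also a goblet gene, had group means of 8562 to 10253 and made up most of the fed sums. Cela2a had 17.1, 4820 and 4923 on PPARα-null fasted arrays and 1687 to 2833.5 on wild-type fasted arrays. When fed it had 7.02 to 47.4 in PPARα-null and 7.76 to 224 in wild-type mice. Pnliprp2 changed less, with 502 to 727 on PPARα-null fasted and 280 to 538 on PPARα-null fed arrays. Immune genes, 12 on the array, summed to 5232 to 6371 on PPARα-null fasted arrays and 9255 to 9741 on PPARα-null fed arrays, against 6461 to 6954 on wild-type fasted arrays and 10341 to 11946 on wild-type fed arrays. Of 11 tested, 7 were lower in null than in wild-type mice after fasting and 3 when fed, and 5 fell upon fasting in each genotype. After fasting, Cd8a, Ighm and Gzmb passed the level filter of 20 only through wild-type mice, in which they were higher. Their means there were 24.6, 107 and 67.2, against 17.6, 16.8 and 8.78 in null mice. The calls of these genes between fasted genotypes carry no weight of their own. Smooth muscle genes, 9 on the array, summed to 3670 to 3916 on PPARα-null fasted arrays and 5038 to 5475 on PPARα-null fed arrays, against 2297 to 3945 on wild-type fasted arrays and 5352 to 6422 on wild-type fed arrays; of 8 tested, none fell in null mice and 5 fell in wild-type mice upon fasting, and none was called between genotypes. Goblet cell genes fell for 2 of 6 in each genotype, and after fasting 2 of 6 were lower in null mice. Over all probe sets tested, 16.8% were lower in null mice after fasting and 1.65% when fed. Upon fasting 23.6% of them fell in null and 7.43% in wild-type mice. The part of these cell types in the members' values was not tested.

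Promoter sequences are shown for 3 members. Cyp3a11 and Cyp2b10 are the genes whose fasting response differed between the genotypes, and Cyp3a25 is a neighbour of Cyp3a11 that was not called in any comparison. They are RefSeq sequences of the reference mouse C57BL/6J on build GRCm38.p6, 5′ to 3′ on the strand of the gene, and run from 250 bases before the transcription start to 50 bases from the start on. Windows were found for 8 of the 9 genes. Capitals mark matches on either strand to the core site of nuclear receptors, AGNTCA, to the direct repeats AGNTCANAGNTCA, AGNTCANNNAGNTCA and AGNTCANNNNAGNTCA, which contain it, to CAAAGTCCA, a form bound by HNF4, to the core of the AhR element, GCGTG, and to the TATA box, TATAAA.
Cyp3a11, chr5:145879805-145880104, minus strand: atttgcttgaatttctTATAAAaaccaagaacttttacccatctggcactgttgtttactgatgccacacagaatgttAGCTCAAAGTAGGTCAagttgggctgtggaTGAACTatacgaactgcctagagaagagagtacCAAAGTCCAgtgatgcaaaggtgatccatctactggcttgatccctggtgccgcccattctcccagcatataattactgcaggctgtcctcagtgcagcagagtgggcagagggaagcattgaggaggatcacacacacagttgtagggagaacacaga
Cyp3a25, chr5:146009569-146009868, minus strand: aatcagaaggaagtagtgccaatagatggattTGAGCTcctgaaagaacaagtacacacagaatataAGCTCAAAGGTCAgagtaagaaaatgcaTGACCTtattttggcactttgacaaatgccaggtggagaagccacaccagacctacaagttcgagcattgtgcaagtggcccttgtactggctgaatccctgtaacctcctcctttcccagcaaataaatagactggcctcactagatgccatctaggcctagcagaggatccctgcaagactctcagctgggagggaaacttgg
Cyp2b10, chr7:25897408-25897707, plus strand: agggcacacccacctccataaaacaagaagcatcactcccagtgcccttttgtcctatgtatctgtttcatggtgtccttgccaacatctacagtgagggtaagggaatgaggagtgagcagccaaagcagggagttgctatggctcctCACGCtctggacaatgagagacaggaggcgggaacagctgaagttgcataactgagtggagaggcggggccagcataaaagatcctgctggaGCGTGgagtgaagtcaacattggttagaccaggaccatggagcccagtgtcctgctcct

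Read from the start site, the Cyp3a11 window held a direct repeat with a spacer of 4 bases, AGCTCAAAGTAGGTCA, between −172 and −157, the arrangement PXR and CAR are known to bind. Of all 32851 RefSeq promoter windows, 0.125% held this motif. CAAAGTCCA stood at −109 to −101 of Cyp3a11, and 0.475% of windows held it. In Cyp3a25 the 2 core sites of the repeat were 1 base apart, AGCTCAAAGGTCA at −183 to −171, a repeat found in 0.219% of windows. Single core sites are common: 46.6% of windows held 1 or more, among them those of 4 of the 8 members. The Cyp2b10 window held no core site and 2 AhR cores, a motif of 32.4% of windows, and Cyp1a1 held 1 such core at −54 to −50. No member's window held the repeat with a spacer of 3 bases, which was in 0.07% of windows. The windows of Cyp2j6 and Cyp2d26 held none of these receptor motifs, and Cyp2d26 had a TATA box, as had 13.6% of windows. These letters say nothing about sites farther upstream, where the phenobarbital-responsive element of Cyp2b10 is known to lie. The motifs were chosen after the sequences had been seen, and a match is a description of letters only.

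**Figure D1:**
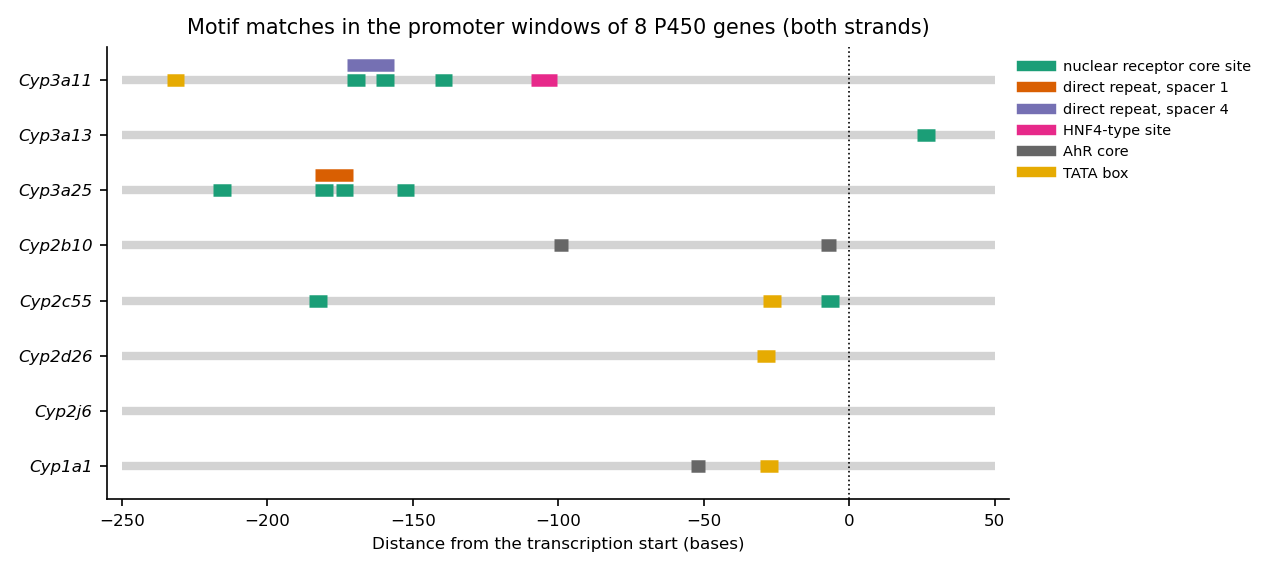
Positions of the motif matches in the promoter windows of 8 members. The horizontal axis is the distance from the transcription start in bases, grey lines are the windows and coloured blocks the matches on either strand, with direct repeats raised. Cyp3a11 has the repeat with a spacer of 4 bases, Cyp3a25 that with a spacer of 1 base and Cyp2b10 only the 2 AhR cores.

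Upon fasting, 6 of the 12 member probe sets were called in PPARα-null mice and 5 in wild-type mice, and those 5 were among the 6. Cyp3a11, Cyp3a13, Cyp2j6 and 1 probe set of Cyp2d22 rose in both genotypes, and Cyp2d26 rose in null mice. Cyp2c55, counted in both with lower values upon fasting, passed the filter only through the wild-type fed group, in which it was highest, so that its calls carry no weight of their own. After fasting, Cyp3a11 and all 3 probe sets of Cyp2b10 were higher in PPARα-null than in wild-type mice, and in fed mice no member was called, where 2.66% of all probe sets were (1% higher, 1.65% lower). Of the 12 member probe sets, 11 passed the level filter of the fasting comparisons, a wild-type fed mean above 20, and Cyp1a1 did not. Over all probe sets tested, 42.2% were called in PPARα-null mice (18.6% up, 23.6% down) and 17.5% in wild-type mice (10% up, 7.43% down). As deposited, the members split differently, with 4 up and 2 down of 6 called in null mice and 2 up and 4 down of 6 called in wild-type mice. The shares of all probe sets were then 51.5% in null mice and 34.2% in wild-type mice, with 8.16% up and 43.4% down in null mice and 2.49% up and 31.7% down in wild-type mice.

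**Figure D2:**
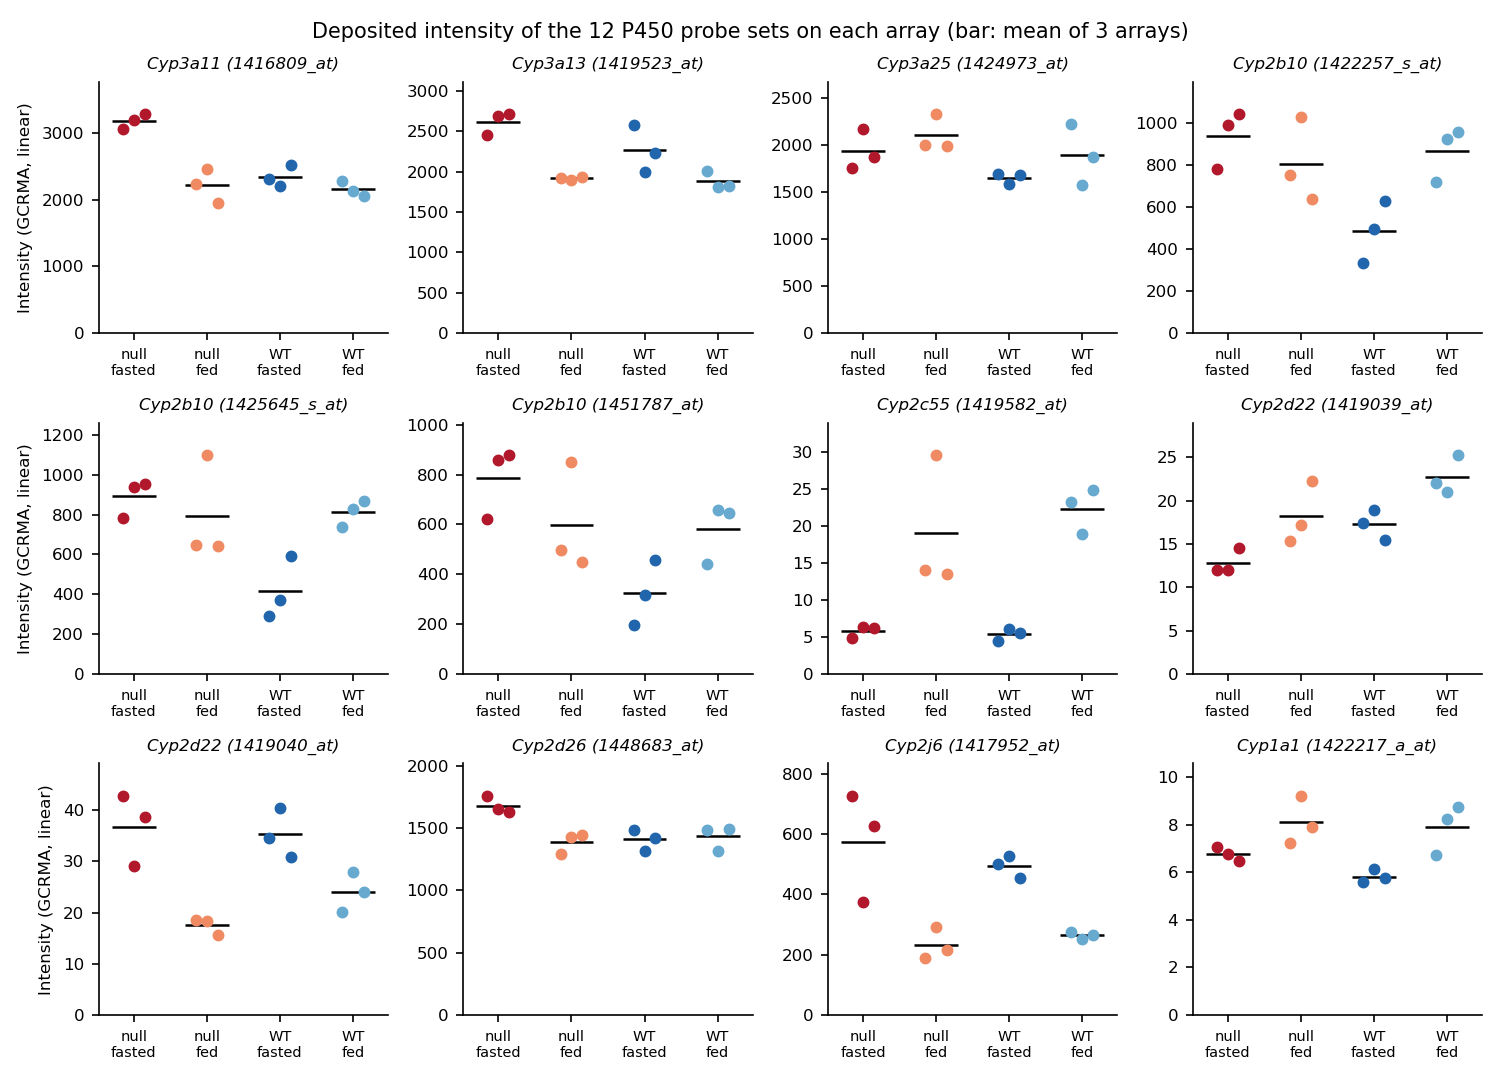
Deposited intensity on a linear scale of the 12 member probe sets on each array, with 1 panel per probe set and an axis that starts at 0. Points are arrays in replicate order, bars the means of 3, and null and WT stand for PPARα-null and wild-type. The 3 PPARα-null fasted arrays of Cyp3a11 (3061 to 3284) lie above all others, and the 3 wild-type fasted arrays of 2 of the Cyp2b10 probe sets lie below all others. The common shift between fasted and fed arrays was not removed here and enters such an order.

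The Cyp3a enzymes have the broadest drug substrates of the family, and Cyp3a11 is the mouse enzyme usually set beside human CYP3A4. Cyp3a11 had intensities of 3061, 3204 and 3284 in PPARα-null fasted mice and 2233, 2469 and 1949 in PPARα-null fed mice, against 2313, 2214 and 2522 in wild-type fasted mice and 2281, 2137 and 2054 in wild-type fed mice. The null fasted arrays stood above the 9 others, which overlapped. Cyp3a11 rose upon fasting by 0.84 (SE 0.10, adjusted p = 1.36e-05) in null mice and by 0.44 (SE 0.10, adjusted p = 0.00694) in wild-type mice. The rise in wild-type mice rests on the shift: as deposited it was 0.12 (adjusted p = 0.2999) and the arrays of the fasted and fed groups overlapped. In null mice it held as deposited (0.53, adjusted p = 0.000377).

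Between genotypes, Cyp3a11 was higher in PPARα-null than in wild-type mice by 0.44 (95% interval 0.23 to 0.65, adjusted p = 0.00300) after fasting, a fold of 1.36 that was called under all 20 alternatives tried. Fed mice gave a difference of 0.03 (95% interval −0.18 to 0.24). The interaction, that is, the response of wild-type mice minus that of PPARα-null mice, was −0.41 (SE 0.14, adjusted p = 0.0474). That call was at the edge of its threshold of 0.05: it was kept in 6 of 20 alternatives and was lost on leaving out any 1 array other than PPARα-null fed replicate 2 and wild-type fasted replicate 3, with values between −0.44 and −0.32 and adjusted p from 0.0556 to 0.103.

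Cyp3a13 had intensities of 2449, 2682 and 2708 in PPARα-null fasted mice and 1914, 1892 and 1935 in PPARα-null fed mice, against 2571, 1988 and 2235 in wild-type fasted mice and 2008, 1806 and 1816 in wild-type fed mice. Null fasted and null fed arrays did not overlap, whereas the lowest wild-type fasted array fell within the range of the wild-type fed ones. It rose upon fasting by 0.76 (SE 0.10, adjusted p = 3.13e-05) in null mice and by 0.58 (SE 0.10, adjusted p = 0.00154) in wild-type mice. As deposited the change in wild-type mice was 0.26 and was not called. The genotypes differed by 0.21 (95% interval 0.00 to 0.42) after fasting and by 0.03 (95% interval −0.18 to 0.24) when fed, neither of them called.

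Cyp3a25, of the same gene cluster, was not called in any comparison. Its intensities were 1758, 2173 and 1869 in PPARα-null fasted mice and 1997, 2325 and 1986 in PPARα-null fed mice, against 1687, 1588 and 1677 in wild-type fasted mice and 2225, 1573 and 1874 in wild-type fed mice. Fasted and fed arrays overlapped in both genotypes. The changes upon fasting were 0.19 (95% interval −0.08 to 0.46) in null mice and 0.13 (95% interval −0.14 to 0.40) in wild-type mice, intervals that hold both no change and a rise of 1.3-fold. The 3 null fasted arrays lay above the 3 wild-type fasted ones, with a difference of 0.22 (SE 0.12, adjusted p = 0.173) that was not called.

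Cyp2b10 is the classical target of CAR in mouse liver and is induced by phenobarbital. It has 3 probe sets, 2 of which end in _s_at, the maker's mark for probes shared by more than 1 transcript, so that a related Cyp2b gene may contribute to them. The probe set 1451787_at, without that mark, had intensities of 623, 857 and 878 in PPARα-null fasted mice and 496, 849 and 449 in PPARα-null fed mice, against 198, 317 and 459 in wild-type fasted mice and 442, 659 and 646 in wild-type fed mice. Every null fasted array was above every wild-type fasted array. PPARα-null fed replicate 2 stood apart from the other two of its group, which were at the level of the lowest wild-type fed array.

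The other 2 probe sets of Cyp2b10 had the same highest and lowest group. Probe set 1422257_s_at had intensities of 782, 992 and 1042 in PPARα-null fasted mice and 752, 1029.8 and 639 in PPARα-null fed mice, against 332, 493 and 628 in wild-type fasted mice and 719.6, 924 and 956 in wild-type fed mice. For 1425645_s_at these were 784, 936 and 955 in PPARα-null fasted mice and 645, 1097 and 642 in PPARα-null fed mice, against 291, 374 and 591 in wild-type fasted mice and 739, 829.6 and 867 in wild-type fed mice. In both, the wild-type fasted arrays were the lowest of the 12 as deposited. The common shift of −0.32 was not removed from these intensities, so that it enters this order of fasted and fed arrays.

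After fasting, Cyp2b10 was higher in PPARα-null than in wild-type mice by 0.99 (SE 0.22, adjusted p = 0.00366), 1.149 (SE 0.24, adjusted p = 0.00217) and 1.34 (SE 0.30, adjusted p = 0.00313) for 1422257_s_at, 1425645_s_at and 1451787_at, that is, 1.99-, 2.22- and 2.53-fold. With Cyp3a11 these were the 4 called of 9 member probe sets tested, all of them higher in null mice. Of all probe sets tested in this comparison 30.8% were called, 14.0% higher and 16.8% lower. The calls of Cyp2b10 held under all 20 alternatives, with lowest values of 0.74, 0.92 and 1.03. In fed mice the differences were −0.12, −0.08 and 0.00, with a widest 95% interval of −0.64 to 0.64, so that the data leave room for a fed difference of more than 1.3-fold in either direction.

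The changes of Cyp2b10 upon fasting had opposite signs in the genotypes, and neither was called by itself. They were 0.55, 0.52 and 0.75 in null mice (adjusted p = 0.0522, 0.0802 and 0.0460) and −0.56, −0.70 and −0.59 in wild-type mice (adjusted p = 0.0898, 0.0512 and 0.172), in the order of the probe sets above. As deposited, the falls in wild-type mice were −0.88, −1.02 and −0.90 and were called. Leaving out PPARα-null fed replicate 2, the array that stood apart, the rises in null mice were 0.74, 0.78 and 1.03 and were called, and the fall of 1425645_s_at in wild-type mice (−0.70) was called too. Leaving out wild-type fasted replicate 3, the highest of its group, 2 falls in wild-type mice were called, −0.78 for 1422257_s_at and −0.99 for 1425645_s_at.

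The interaction of Cyp2b10, the wild-type response minus the PPARα-null one, was −1.11 (SE 0.32, adjusted p = 0.0234), −1.22 (SE 0.34, adjusted p = 0.0203) and −1.34 (SE 0.42, adjusted p = 0.0355). Together with Cyp3a11 they made 4 of 11 member probe sets called in the interaction, where 23.8% of all probe sets were called, 14.6% with the higher and 9.22% with the lower response in wild-type mice. All 20 alternatives kept the call of 1425645_s_at, 16 that of 1422257_s_at and 10 that of 1451787_at. The call of 1422257_s_at ended when PPARα-null fasted replicate 3, PPARα-null fed replicate 3 or replicate 2 or 3 of the wild-type fed group was left out, with adjusted p from 0.0519 to 0.0555. That of 1451787_at ended without these, and also without PPARα-null fed replicate 1, PPARα-null fasted replicate 2 or wild-type fasted replicate 1 or 2, with adjusted p from 0.0566 to 0.0782.

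Genes of ileal enterocytes were, like Cyp2b10, higher in PPARα-null than in wild-type mice after fasting. The summed signal of 5 such genes was 13308 to 13682 on PPARα-null fasted arrays and 11180 to 15090 on PPARα-null fed arrays, against 6774 to 7749.9 on wild-type fasted arrays and 11204 to 13133 on wild-type fed arrays. All 4 tested were higher in null than in wild-type mice after fasting, led by Fabp6, the ileal bile acid-binding protein (1.21, SE 0.14, adjusted p = 3.47e-05). Over all probe sets tested after fasting, 14.0% were higher and 16.8% lower in null mice. The changes of the 4 ileal genes upon fasting were not alike. They were −1.20 in wild-type and 0.01 in null mice for Fabp6, and −0.37 and 0.30 for Slc51a. For Slc10a2 they were 0.02 and 0.98, and for Guca2a 0.35 and 0.74. Fgf15, of the same list, had group means between 5.90 and 12.5. The part of these genes in the difference of Cyp2b10 was not tested.

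**Figure D3:**
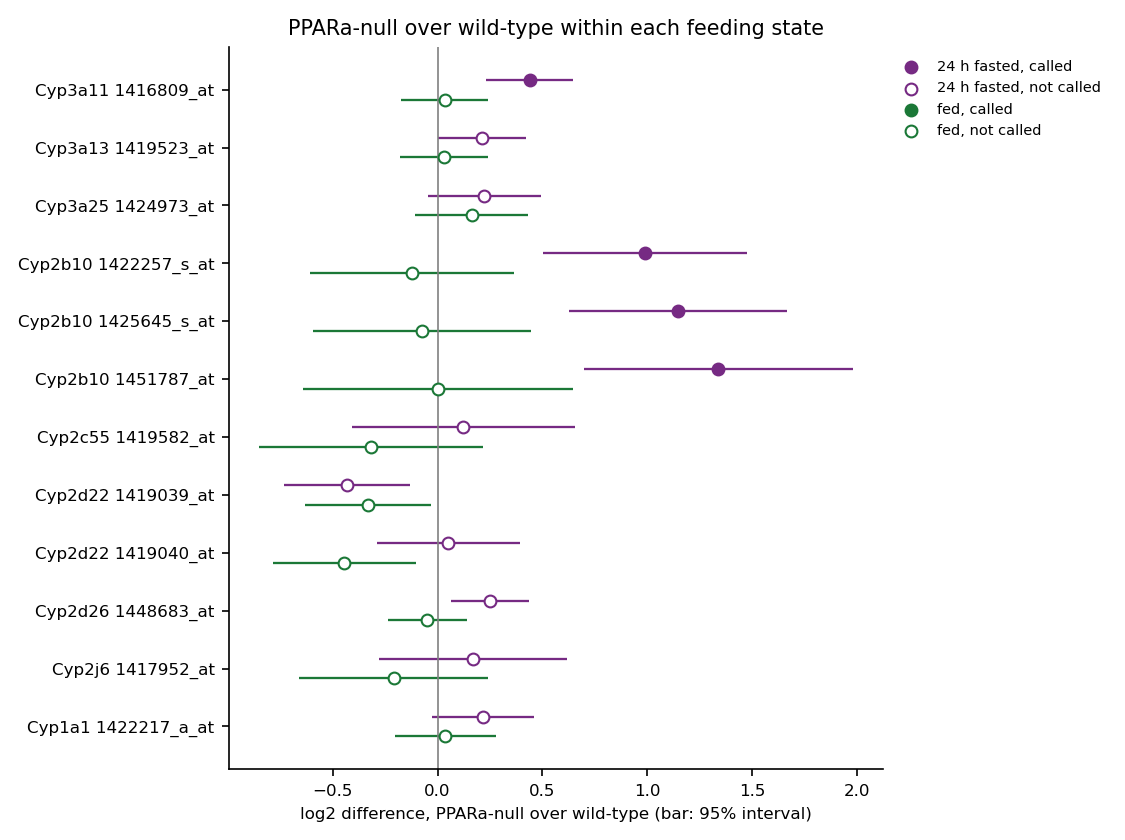
Differences of PPARα-null over wild-type mice on the log2 scale for the 12 member probe sets, after 24 h of fasting and when fed. Points are estimates, filled where called, and bars are 95% intervals. Cyp3a11 (0.44) and the 3 probe sets of Cyp2b10 (0.99 to 1.34) are the only filled points, all of them in fasted mice; Cyp1a1 in both states, and Cyp2c55 and Cyp2d22 1419039_at in fasted mice, were under the level filter.

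Cyp2d26 and Cyp2d22 belong to the mouse counterparts of human CYP2D6, and the substrates of the single mouse enzymes are less settled. Cyp2d26 had intensities of 1754, 1648 and 1624 in PPARα-null fasted mice and 1288, 1425 and 1442 in PPARα-null fed mice, against 1485, 1318 and 1423 in wild-type fasted mice and 1485, 1317 and 1495 in wild-type fed mice. The null fasted arrays were the 3 highest of the 12. It rose by 0.59 (SE 0.09, adjusted p = 9.60e-05) in null mice, a call that was lost as deposited (0.28, adjusted p = 0.0135). In wild-type mice the value was 0.29 (SE 0.09, adjusted p = 0.0285), under a fold of 1.3, and as deposited −0.02. After fasting the genotypes differed by 0.25 (SE 0.09, adjusted p = 0.0341), which was not called, and the difference between the responses, wild-type minus PPARα-null, was −0.30 (SE 0.12, adjusted p = 0.0958).

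The 2 probe sets of Cyp2d22 disagreed. Probe set 1419040_at had intensities of 42.7, 29.1 and 38.6 in PPARα-null fasted mice and 18.6, 18.3 and 15.7 in PPARα-null fed mice, against 34.6, 40.4 and 30.9 in wild-type fasted mice and 20.1, 27.9 and 24.0 in wild-type fed mice. It rose upon fasting by 1.37 (SE 0.16, adjusted p = 1.41e-05) in null mice and by 0.88 (SE 0.16, adjusted p = 0.00223) in wild-type mice, with no overlap of fasted and fed arrays in either. Probe set 1419039_at had 11.99, 11.99 and 14.6 in PPARα-null fasted mice and 15.3, 17.2 and 22.3 in PPARα-null fed mice, against 17.5, 18.9 and 15.5 in wild-type fasted mice and 22.1, 21.0 and 25.2 in wild-type fed mice. Its changes upon fasting were −0.18 (95% interval −0.48 to 0.12) in null mice and −0.08 (95% interval −0.38 to 0.22) in wild-type mice. Both lay near the level filter of 20, and a direction for the gene cannot be given from them together.

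In fed mice both Cyp2d22 probe sets had lower values in PPARα-null than in wild-type mice, −0.44 (SE 0.16, adjusted p = 0.294) for 1419040_at and −0.33 (SE 0.14, adjusted p = 0.385) for 1419039_at, and neither was called. They were called when 1 array was left out, wild-type fed replicate 1 (−0.56) or PPARα-null fasted replicate 2 (−0.44) for 1419040_at and PPARα-null fed replicate 3 (−0.49) for 1419039_at. Both probe sets passed the filter of this comparison only through wild-type fed mice, in which they were higher. Their means there were 24.0 and 22.8, against 17.5 and 18.3 in PPARα-null fed mice. These calls therefore carry no weight of their own. Without PPARα-null fasted replicate 2 the difference between the responses of 1419040_at, wild-type minus PPARα-null, was −0.66 (adjusted p = 0.0376), against −0.49 (adjusted p = 0.128) with all arrays.

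Cyp2j6, an intestinal P450 of the subfamily of arachidonic acid epoxygenases, had the largest rise among the members. Its intensities were 725, 375 and 626 in PPARα-null fasted mice and 190.2, 291 and 214 in PPARα-null fed mice, against 499.8, 529 and 453 in wild-type fasted mice and 275, 252 and 265 in wild-type fed mice. Fasted arrays were above fed arrays in both genotypes. The rise was 1.60 (SE 0.21, adjusted p = 3.68e-05) in null mice, or 3.02-fold, and 1.22 (SE 0.21, adjusted p = 0.00165) in wild-type mice, or 2.33-fold. Both were called under all 23 alternatives, with lowest values of 1.28 and 0.90 as deposited. PPARα-null fasted replicate 2 stood well below the other two of its group; without it the rise in null mice was 1.88 and the difference between the responses, wild-type minus PPARα-null, was called at −0.66 (adjusted p = 0.0414), against −0.38 (adjusted p = 0.385) with all arrays.

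Cyp2c55, which oxidizes arachidonic acid and is best known from the large intestine, had lower signals in fasted than in fed mice. Its intensities were 4.93, 6.38 and 6.20 in PPARα-null fasted mice and 14.0, 29.6 and 13.6 in PPARα-null fed mice, against 4.50, 6.04 and 5.55 in wild-type fasted mice and 23.3, 18.9 and 24.9 in wild-type fed mice. All 6 fasted arrays were below all 6 fed arrays, and the fasted ones were all below 20. Neither mean of the null mice reached the level filter (5.84 when fasted, 19.1 when fed), and of the wild-type mice only the fed mean did (22.4, against 5.36 when fasted). The fasted values lay below the array medians and near those of Cyp1a1, so that the fitted changes, −1.303 (SE 0.25) in null mice and −1.745 (SE 0.25) in wild-type mice, cannot be read as sizes. The fed genotypes differed by −0.32 (95% interval −0.85 to 0.22). PPARα-null fed replicate 2, the array that also stood apart for Cyp2b10, was more than the sum of the other 2 of its group. Without it the fed difference was −0.68 and was called. The difference between the responses, wild-type minus PPARα-null, was then −0.81 (adjusted p = 0.0205), against −0.44 (adjusted p = 0.393) with all arrays. In both, Cyp2c55 passed the filter only through wild-type fed mice, so that these calls carry no weight of their own.

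Cyp1a1, the main target of AhR, was under the level filter in each group and was not tested. Its intensities ran between 6.49 and 7.05 in PPARα-null fasted mice and between 7.21 and 9.19 in PPARα-null fed mice, against 5.58 to 6.11 in wild-type fasted mice and 6.73 to 8.72 in wild-type fed mice. No array of the 12 reached the filter. Of 9 other genes on the array that AhR is known to act on, 5 were tested, and after fasting 2 were higher in null mice and 1 lower. Gsta2, among the higher, passed the filter only through the null fasted group, so that its call carries no weight of its own. Over all probe sets tested after fasting, 14.0% were higher and 16.8% lower in null mice.

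**Figure D4:**
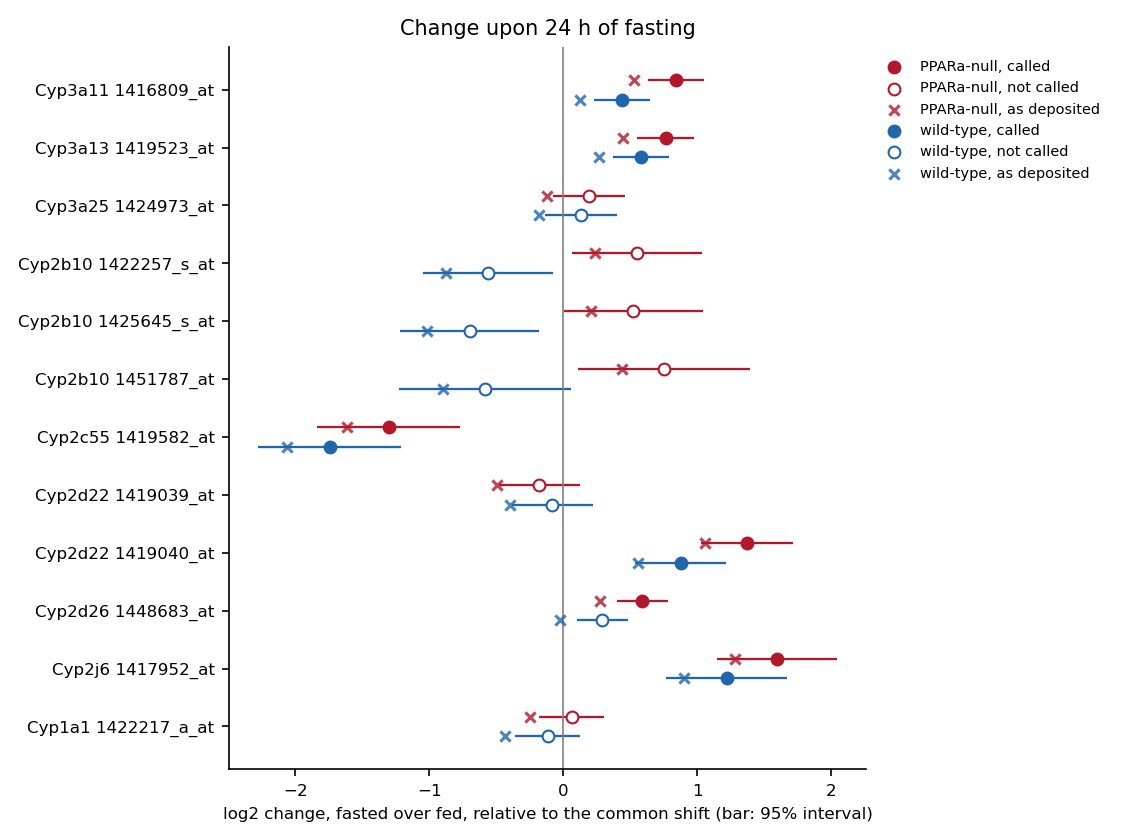
Changes upon 24 h of fasting on the log2 scale for the 12 member probe sets, PPARα-null above wild-type in each pair. Points are changes relative to the common shift with 95% intervals, filled where called, and crosses are the values as deposited, lower by 0.32. Cyp2j6 is called in both genotypes on either scale, Cyp2c55 passed the level filter only through its highest group, and the pairs of Cyp2b10 lie on opposite sides of 0.

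By level as deposited, PPARα-null fasted mice had the highest mean for Cyp3a11, Cyp3a13, Cyp2b10, Cyp2d22 1419040_at, Cyp2d26 and Cyp2j6, and wild-type fed mice for Cyp2c55 and Cyp2d22 1419039_at. The null fasted arrays of Cyp3a11 and Cyp2d26 overlapped with no other group, though the difference of Cyp2d26 between fasted genotypes was not called. For Cyp2j6, wild-type fasted arrays lay inside the null fasted range. Wild-type fasted mice had the lowest mean for Cyp3a25, Cyp2b10, Cyp2c55 and Cyp1a1. The common shift enters these orders of fasted and fed groups. Relative to it, Cyp3a25 changed by 0.13 upon fasting in wild-type mice, which was not called.

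Among the receptors and nuclear factors that act on P450 genes, 17 of 21 listed were on the array and 14 passed the filter. After fasting 4 were higher and 5 lower in PPARα-null than in wild-type mice, and in fed mice none of 14 was called. The median difference was −0.16 after fasting, beside −0.01 over all probe sets tested. Of all probe sets tested after fasting, 14.0% were higher and 16.8% lower in null mice. Nr1i3, which encodes CAR, had 166 to 182 in PPARα-null fasted mice and 95.9 to 122.9 in PPARα-null fed mice, against 102 to 146 in wild-type fasted mice and 103 to 139 in wild-type fed mice. It was higher in null mice after fasting by 0.59 (SE 0.15, adjusted p = 0.00780), with no overlap of the arrays, and rose upon fasting by 0.99 (SE 0.15, adjusted p = 0.000143) in null mice, against 0.34 (SE 0.15, adjusted p = 0.124) in wild-type mice. Its difference between the responses, wild-type minus PPARα-null, was −0.65 (SE 0.22, adjusted p = 0.0451).

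Nr1i2, which encodes PXR, was higher in null mice after fasting by 0.48 (SE 0.15, adjusted p = 0.0194), from low intensities of 27.7 to 31.9 in PPARα-null fasted mice and 16.8 to 27.5 in wild-type fasted mice. Nr1h4, the bile acid receptor FXR, was higher there by 0.72 (SE 0.19, adjusted p = 0.00802). Lower in null mice after fasting were Hnf4g (−1.54, adjusted p = 7.42e-06), a nuclear receptor of the enterocyte, the coactivator gene Ppargc1a (−1.32, adjusted p = 0.000112) and Ahr (−0.69, adjusted p = 0.00205). Upon fasting 14 were tested as well, with Nr0b2 in place of Nr1i2. Of these, 4 rose and 5 fell in null mice, and 3 rose and none fell in wild-type mice. The median changes of the list were −0.22 in null mice and 0.24 in wild-type mice, beside −0.02 and 0.03 over all probe sets. As deposited the counts were 3 and 8 in null mice and 1 and 3 in wild-type mice. The deposited shares over all probe sets were 8.16% up and 43.4% down in null mice, and 2.49% up and 31.7% down in wild-type mice.

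Genes other than P450s that PXR and CAR are known to induce, mostly from work on mouse liver, made a further list, with 22 on the array. Of 19 tested after fasting, 6 were higher and none lower in PPARα-null than in wild-type mice, the other 13 were not called, and the median difference over the 19 was 0.38. Of the 6 that were higher, 4 encode glutathione transferases. Gsta2 and Meg3 passed the filter only through the PPARα-null fasted group, in which they were higher (40.1 against 18.5 and 29.7 against 17.5). Their calls carry no weight of their own. Over all probe sets tested after fasting, 14.0% were higher and 16.8% lower in null mice. In fed mice none of 18 was called, and the median was −0.01. Highest were the glutathione transferases Gstm2 (1.29, SE 0.18, adjusted p = 0.000110), Gstm1 (1.24, SE 0.36, adjusted p = 0.0145) and Gsta2 (1.22, SE 0.34, adjusted p = 0.0127), whose family is encoded by closely related genes. Upon fasting 3 rose and 2 fell of 17 in null mice, and none rose and 6 fell in wild-type mice. Shares of all probe sets tested upon fasting were 18.6% up and 23.6% down in null mice. In wild-type mice they were 10% up and 7.43% down. As deposited 3 of the 17 rose and 4 fell in null mice, and 11 fell in wild-type mice. Abcb1a, the drug efflux pump P-glycoprotein, rose by 1.18 (SE 0.22, adjusted p = 0.000517) in null mice, beside −0.00 (SE 0.22) in wild-type mice, and Gstm3 fell by 1.61 on the log2 scale (SE 0.33, adjusted p = 0.00441) in wild-type mice. In the interaction 5 of 19 were called, all 5 with the lower response in wild-type mice, and the median over the list was −0.44, beside 0.04 over all probe sets. Of all probe sets tested, 14.6% were called with the higher and 9.22% with the lower response in wild-type mice.

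**Figure D5:**
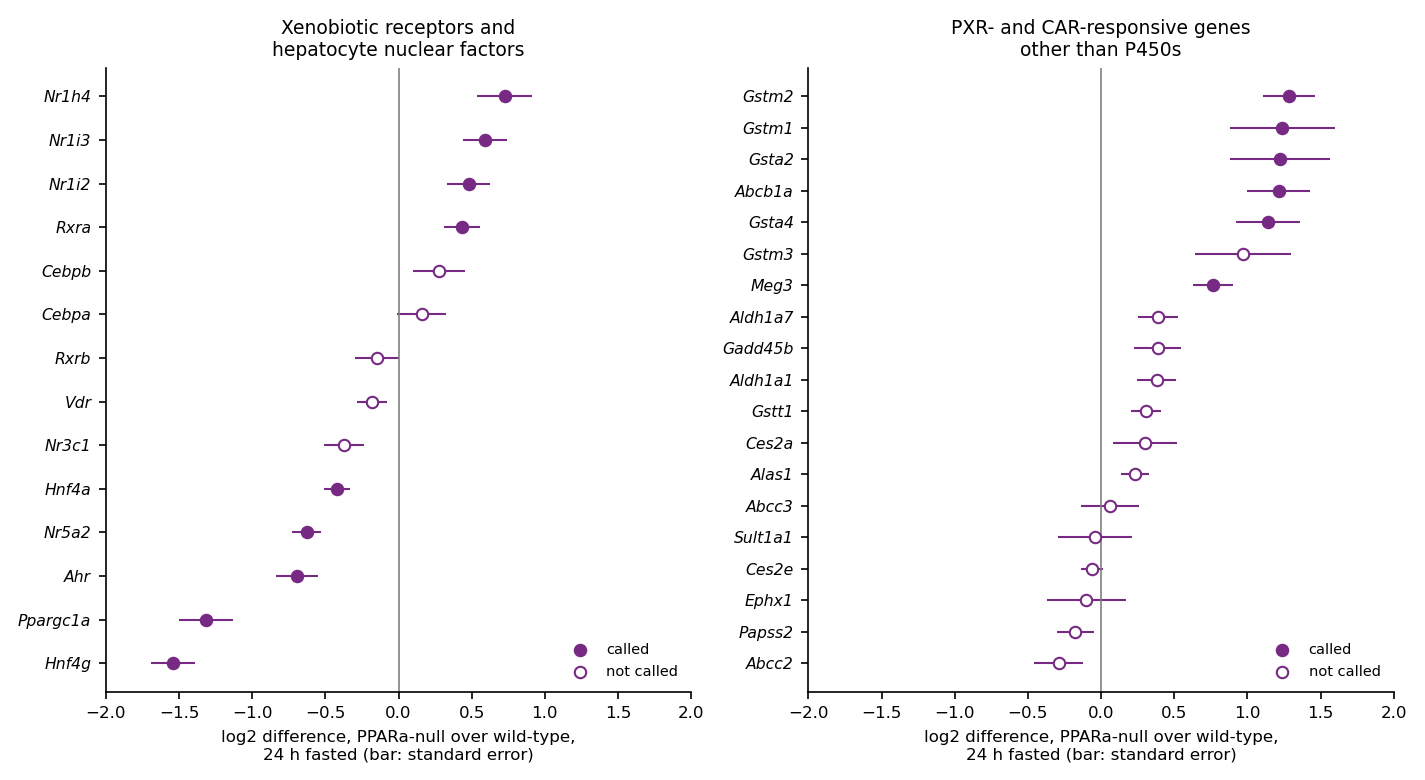
Differences of PPARα-null over wild-type mice after 24 h of fasting on the log2 scale, for the tested receptors and nuclear factors (left) and PXR- and CAR-responsive genes other than P450s (right). Points are estimates for 1 probe set per gene, filled where called, and bars are standard errors. Receptors lie on both sides of 0, with Hnf4g at −1.54 and Nr1h4 at 0.72, while the 6 called responsive genes are all above 0. Of these, Gsta2 and Meg3 passed the level filter only through the PPARα-null fasted group.

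Of 13 partners on the array that supply P450s with electrons and heme, 10 were tested upon fasting. In null mice 2 rose and 1 fell, and in wild-type mice none rose and 1 fell, against 3 falls in null mice and 4 in wild-type mice as deposited. Cyb5b, a cytochrome b5, rose by 0.61 (SE 0.08, adjusted p = 6.52e-05) in null mice, and Cpox, of heme synthesis, fell by 0.39 on the log2 scale (SE 0.10, adjusted p = 0.0171) in wild-type mice. Cyb5a, the cytochrome b5 of the endoplasmic reticulum, was the 1 of 9 tested that was higher in null mice after fasting (0.49, SE 0.10, adjusted p = 0.00143), with 1912 to 2119 in PPARα-null fasted mice and 1240 to 1590 in wild-type fasted mice. Over all probe sets tested, 14.0% were higher there.

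Most other P450s of families 1 to 3 gave little signal. Of 30 further genes on the array, 3 passed the filter of the fasting comparisons and 4 those of the others. Cyp2c65 was lower in PPARα-null than in wild-type fed mice, with a difference of −0.65 (SE 0.14, adjusted p = 0.0727), with 899 to 1220 in PPARα-null fed mice and 1561 to 1615 in wild-type fed mice; it was the 1 of 4 called there. Cyp2c68 was lower in null mice after fasting, with a difference of −0.49 (SE 0.10, adjusted p = 0.00175), with 136 to 169 in PPARα-null fasted mice and 202 to 217 in wild-type fasted mice, the opposite side from Cyp2b10.

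Likeness of pattern was measured as Pearson's r over the 12 arrays, after each feeding state had been centred. It was taken among 9023 probe sets with 1 gene symbol and a mean over 20 in any group. The arrays share their groups, so that r is a description. The 3 probe sets of Cyp2b10 had r of 0.97 to 0.99 with each other, and Cyp3a11 had 0.84 to 0.89 with them. Cyp3a11 and Cyp3a13 gave 0.66, Cyp3a11 and Cyp3a25 0.65, and the 2 probe sets of Cyp2d22 0.25. Closest to Cyp2b10 were Atp2a2, the calcium pump of the endoplasmic reticulum, with r of 0.95 to 0.96, and Lgals3, a galectin, with 0.94 to 0.96. Closest to Cyp3a11 was Cyp51, the lanosterol demethylase of cholesterol synthesis, with r of 0.96. Closest to Cyp2j6 was Mfge8, with 0.87, followed by 2210010C04Rik, with 0.84.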

How the data were processed

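Small intestines of PPARα-null and wild-type mice, fasted for 24 h or fed, were measured on 12 Affymetrix 430A arrays. The deposited values are intensities on a linear scale, which the authors made with GCRMA (version 2.20 in the submitters' processing notes), a method that corrects background from probe sequence, quantile-normalizes the arrays and summarizes the probes of a set; the number of arrays limits the precision. They were taken to log2 and fitted with limma 3.58.1 (lmFit, eBayes) in R 4.3.3, with 1 mean per group. A common shift of −0.32 was removed from fasting contrasts. Filters were a mean above 20 for the wild-type fed group in fasting comparisons, in either group compared for genotype and in any group for the interaction, which was called at an adjusted p under 0.05. Gene names came from the platform annotation (20393 probe sets with 1 symbol, 691 with several, 1606 with none). From each gene list up to 3 called rises and 3 called falls per comparison could be named, with 1 probe set per gene. Members and lists were chosen with earlier results of these data known. The replicate numbers were checked and do not pair the arrays (median correlation of deviations 0.01 for same numbers, −0.02 for different ones). The procedure was tested on simulated data. Alternatives were other scalings, filters, variances, thresholds, array weights, the replicate block and each array left out.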

Additional observations from a re-analysis of the deposited data

Results flagged for a closer look

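Results whose fasting response differed between the genotypes by a test of the difference itself (limma's interaction term, adjusted p under 0.05) were the following, each as wild-type minus PPARα-null on the log2 scale. For Cyp3a11 the difference was −0.41, from rises of 0.84 in PPARα-null and 0.44 in wild-type mice. For the 3 probe sets of Cyp2b10 it was −1.11, −1.22 and −1.34, from positive values in PPARα-null and negative ones in wild-type mice, none of which was called by itself.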

How the results depend on the processing

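No member value reversed its sign while called under any alternative. The counts of member probe sets called kept within 1.5 times of the main count except as follows. With a mean over 100 required, 3 in place of 5 were called upon fasting in wild-type mice; with no filter on level, 2 in place of 4 in the interaction; and in a fit of only the groups compared, 1 in place of 0 between fed genotypes. Leaving out each array in turn gave 6 to 9 called upon fasting in PPARα-null mice, 5 to 7 in wild-type mice, 4 each time between fasted genotypes, 0 to 1 between fed genotypes and 1 to 5 in the interaction. The calls between fed genotypes were of Cyp2c55 and Cyp2d22 probe sets, which passed the filter only through wild-type fed mice. The interaction count was 1 when PPARα-null fasted replicate 3, PPARα-null fed replicate 3 or replicate 2 or 3 of the wild-type fed group was left out, and 2 without PPARα-null fed replicate 1 or wild-type fasted replicate 1 or 2. With the replicate block, which the data did not call for, 7 were called upon fasting in each genotype, 4 between fasted genotypes, 0 between fed genotypes and 3 in the interaction. Over all probe sets, the 254 calls between fed genotypes became 60 at an adjusted p under 0.05 and 138 with a mean over 100. Calls upon fasting were 3955 in PPARα-null mice and 1636 in wild-type mice, against 7348 and 3195 with no filter, 1988 and 772 with a mean over 100, and 4829 and 3204 as deposited. Cyp3a11's call in wild-type mice was also lost with quantile normalization (0.32) and a shift that depends on level (0.37). The 3 arrays per group limit all of these.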

Other observations

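Nfe2l2, which encodes the oxidative stress factor NRF2 and stands in the list of AhR-responsive genes, had the largest fall of the genes named. Its 1 probe set had 30.2, 50.3 and 60.0 in PPARα-null fasted mice and 1518, 1523 and 1618 in PPARα-null fed mice, against 1005, 1239.6 and 1337 in wild-type fasted mice and 1425, 1560.5 and 1611 in wild-type fed mice, in order of size. The difference between fasted genotypes was −4.72 (SE 0.20, adjusted p = 8.83e-09), and that between fed genotypes 0.02 (SE 0.20). Nqo1, a gene NRF2 is known to act on and named here after its values had been seen, had a difference of 0.30 (SE 0.24, adjusted p = 0.341) between fasted genotypes, which was not called.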
